A study of Mus musculus with 10 samples.

Results

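The genes of the mitochondrial ribosomal proteins were followed across regulatory T (Treg) cells from lymph nodes and from implanted tumours of 2 kinds. The members were all genes of the deposited count table whose symbol begins with Mrpl or Mrps and a digit, with symbols of pseudogenes left out, which gave 78 of 55291 listed genes. The study sequenced the RNA of 10 libraries of Treg cells, and its submitters asked how Treg cells inside tumours differ in gene expression from those of lymph nodes. All mice carried the Foxp3YFP-cre allele, which expresses a yellow fluorescent protein fused to Cre recombinase from the Foxp3 locus. The LN group (4 libraries) held Treg cells of lymph nodes from mice without a tumour. The Hepa1-6 group (4 libraries) held Treg cells that had infiltrated subcutaneous tumours of the mouse hepatoma line Hepa1-6 by day 23, and the E.G7 group (2 libraries) those of subcutaneous tumours of E.G7, an ovalbumin-expressing subline of the EL4 thymic lymphoma, by day 21. Tumour Treg cells were obtained with a flow sorter from isolated CD4+ T cells. The ages of the mice, the sort gate and whether replicates came from separate mice were not given in the sources used here, so p-values measure only the spread between these libraries.

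Mitochondria have their own ribosomes, which translate the few mRNAs of the mitochondrial genome into core subunits of the respiratory chain and of ATP synthase. Every protein of these ribosomes is encoded in the nucleus, made in the cytosol and imported, whereas their ribosomal RNAs are transcribed from mitochondrial DNA. Some of the proteins have counterparts in bacterial ribosomes, and the others were gained in the mitochondrial lineage. T cells enlarge their mitochondria and raise mitochondrial translation when they are activated and divide.

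The symbols do not match the subunits throughout. Mrps30 and Mrps18a belong to the large subunit despite their names, and Mrps36 is a subunit of the 2-oxoglutarate dehydrogenase complex rather than of the ribosome. With these corrections the members comprised 51 large subunit genes, 26 small subunit genes and Mrps36. By counterpart, 45 were sorted as having one in bacteria, 28 as specific to mitochondria, and 4 were not sorted.

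Promoter sequences are given first, to show what genes of a shared machine, scattered over the genome, have in common near their start sites. RefSeq windows on build GRCm38.p6 (300 bases, 250 before and 50 after the start) matched 69 of the 78 members. 4 motifs were searched on both strands: CCGGAAG, the core bound by ETS factors such as GABP, the consensus site of nuclear respiratory factor 1 (NRF1), AAGATGG, a site of YY1, and CACGTG, the E-box bound by MYC and its relatives. None of these letter strings contains another. The ETS motif was in 26 member windows (37.7%), against 12.9% of the windows of all 17492 protein-coding genes and 18.4% of those of the 11266 protein-coding genes tested below. The NRF1 motif was in 13 member windows (18.8%), against 7.17% and 10.4%. The YY1 motif was also in 13 (18.8%), against 7.18% and 8.10%. The E-box was in 5 (7.25%), against 8.91% and 11.0%. At least 1 of the 4 motifs was in 65.2% of member windows and in 30.1% of protein-coding windows. These shares describe letters only and were not tested, and a match is not a bound site.
The stretches before the start of 6 members on which the results below turn are printed 5′ to 3′ on the gene's strand, trimmed to bases outside any listed exon, with motif matches in capitals. The first 5 belong to genes that rose in both tumours and the last to the only member called lower in both.
Mrpl12, chr11:120484487-120484612 (+ strand), NRF1 motif in capitals: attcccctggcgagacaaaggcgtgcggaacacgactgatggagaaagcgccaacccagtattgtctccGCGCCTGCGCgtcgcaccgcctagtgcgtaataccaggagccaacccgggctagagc
Mrpl17, chr7:105811100-105811237 (- strand), NRF1 motif in capitals: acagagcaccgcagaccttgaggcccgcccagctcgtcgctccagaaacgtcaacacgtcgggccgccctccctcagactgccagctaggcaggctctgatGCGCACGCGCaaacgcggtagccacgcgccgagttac
Mrpl20, chr4:155802728-155802877 (+ strand), E-box in capitals: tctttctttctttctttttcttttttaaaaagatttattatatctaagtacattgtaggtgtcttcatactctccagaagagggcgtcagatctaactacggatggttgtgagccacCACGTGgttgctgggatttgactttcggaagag
Mrpl34, chr8:71464776-71464925 (+ strand), ETS motif in capitals: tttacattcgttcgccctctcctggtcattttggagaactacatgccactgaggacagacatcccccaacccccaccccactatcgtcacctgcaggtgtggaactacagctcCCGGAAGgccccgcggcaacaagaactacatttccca
Mrpl28, chr17:26123353-26123499 (+ strand), none of the 4 motifs: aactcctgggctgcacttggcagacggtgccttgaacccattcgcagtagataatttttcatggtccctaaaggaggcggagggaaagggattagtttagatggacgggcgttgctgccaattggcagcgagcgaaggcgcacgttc
Mrpl24, chr3:87919394-87919505 (+ strand), none of the 4 motifs: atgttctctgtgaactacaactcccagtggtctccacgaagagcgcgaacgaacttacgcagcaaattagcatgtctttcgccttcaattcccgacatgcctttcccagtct
Neither Mrpl28 nor Mrpl24 held any of the 4 strings in its whole window, although they moved in opposite directions. The ETS motif was in 20 of the 56 windows of members that were higher in E.G7 than in LN and in 5 of the 12 windows of tested members that were not, which are shares of 35.7% and 41.7%. For the NRF1 motif the corresponding counts were 12 of 56 and 1 of 12, for the YY1 motif the same, and for the E-box 5 of 56 and 0 of 12. These differences were not tested, and the second group is small.

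The libraries held 22665563 to 26665325 counts each, and member genes were read deeply, with 186 to 4423 counts per member and library for the 77 that were detected. Levels are given below as counts per fixed number of counts in the library (CPM) after TMM scaling, which evens out differences in RNA composition between libraries, or, where genes are compared with each other, as counts per kilobase scaled to a fixed total (TPM). T cell markers were high in every library. The 8 Treg and T cell markers, among them Foxp3, Il2ra and Cd4, summed to 5171 to 5275 CPM in LN, 5138 to 5284 in Hepa1-6 and 4609 to 4684 in E.G7. Of these 8, 6 were lower and 1 was higher than LN in each tumour. Among all genes, 31.1% were lower in Hepa1-6 and 27.2% in E.G7. The median log2 fold changes of the 8 were -0.26 in Hepa1-6 and -0.51 in E.G7, and their largest increases were 1.78 and 1.62. RNA of other cells was present in the tumour libraries. All 14 macrophage and neutrophil markers were higher in both tumour groups, and their sum was 25.3 to 37.2 CPM in LN, 4226 to 4585 in Hepa1-6 and 749 to 785 in E.G7, with Mmp12 and S100a9 at 0 in LN. The 9 hepatoma markers summed to 1395 to 1492 CPM in Hepa1-6 and at most 8.07 in the other groups, almost all of it from Alb, Afp, Krt8 and Krt18, while Serpina1e was at 0 in Hepa1-6. The 5 thymic lymphoma markers summed to 17.6 to 20.01 CPM in LN, 64.1 to 75.4 in Hepa1-6 and 196 to 205 in E.G7, where Trap1a and Dntt made up most of it and Rag1 and Rag2 were at 0. Summed markers of CD8 T and NK cells (5 genes) reached 223 to 244 CPM in Hepa1-6, 53.5 to 57.7 in E.G7 and at most 5.01 in LN. Those of B cells (4 genes) were at most 30.4 in any library, and those of stroma and endothelium (6 genes) lay between 96.6 and 239.8. Of the 6 stroma and endothelium genes, 5 were higher and 1 was lower than LN in each tumour. Among all genes, 37% were higher in Hepa1-6 and 32.7% in E.G7. The median log2 fold changes of the 6 were 4.25 in Hepa1-6 and 2.92 in E.G7, a rise that the sum does not show. In bulk RNA, fewer cells of a type and less RNA per cell cannot be told apart, and the part of RNA from other cells in the results below was not tested.

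Among the members, levels per listed exon length differed 15.3-fold. The median member stood at 47.2 TPM over the 10 libraries. The highest were Mrpl54 at 150.3, Mrpl4 at 138, Mrpl28 at 135 and Mrpl12 at 131 TPM, all of the large subunit. Mrpl12 forms the flexible stalk that recruits translation factors, and Mrpl4 lines the tunnel through which the new protein leaves. The lowest detected members were Mrpl48 at 9.84, Mrpl47 at 10.4, Mrps25 at 12.5 and Mrps10 at 12.6 TPM. Their listed exons span 8152, 4419, 6576 and 8079 bases, against 825 for Mrpl54, so this ranking depends on the listed length. In LN, Mrpl48 and Mrpl54 stood at 24.3 and 27.3 CPM. Mrpl53 had no count in any library, and 88.0% of its exon bases overlap other listed genes on the same strand. Replicates lay close together: the median coefficient of variation over members was 8.87% in LN, 7.90% in Hepa1-6 and 3.86% in E.G7.

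In E.G7 tumours the mitochondrial ribosomal protein genes were mostly higher than in lymph nodes. Of 77 members tested, 63 were higher at an adjusted p below 0.05 (edgeR), where 32.7% of all 20068 genes tested were, and 2 were lower, where 27.2% were. The median log2 fold change over members was 0.56, with a range of -0.91 to 1.30, beside 0.01 over all genes. Of the 77, 37 were higher by at least 1.5-fold, beside 25.8% of all genes. In 69 members both E.G7 libraries lay above all 4 LN libraries, and in 2 below them, where 36.6% and 32.6% of all genes did so. 31 of the 63 stayed higher under every alternative processing, the strictest of which tests against a 1.5-fold change.

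**Figure D1:**
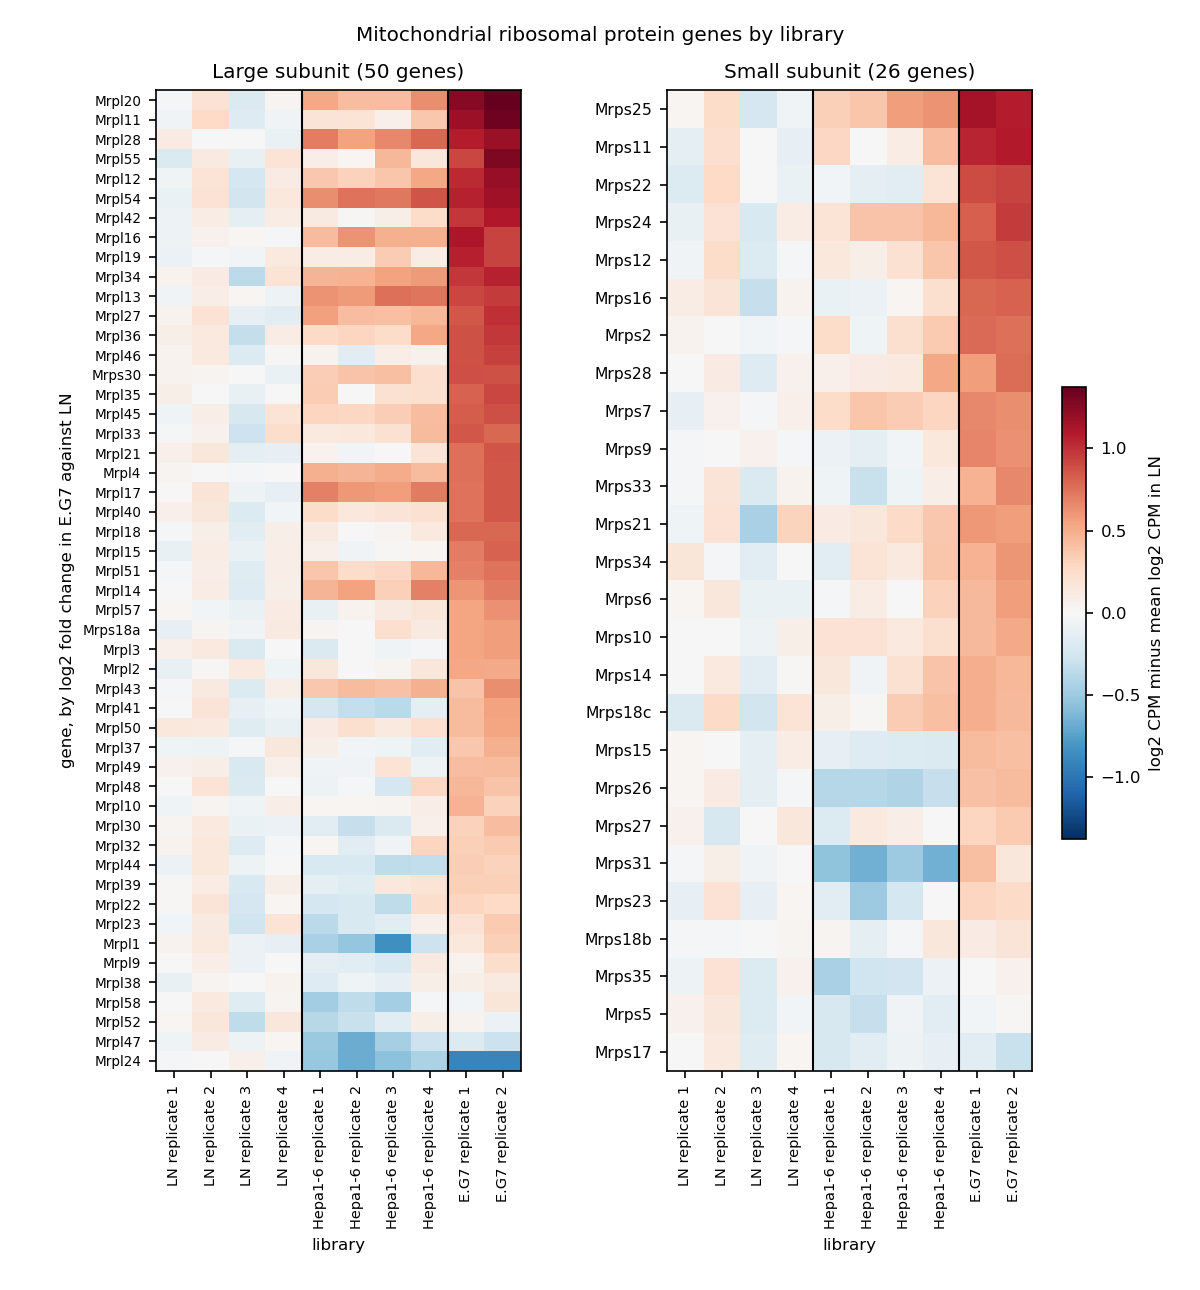
Each row is a member gene and each column a library, coloured by log2 CPM minus the gene's mean log2 CPM in LN (log2 units), with large subunit genes on the left and small subunit genes on the right, ordered by their change in E.G7. The E.G7 columns are red for nearly all genes, whereas the Hepa1-6 columns are red for some genes and blue for others, and Mrpl24 is blue in both tumours.

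Of the 50 large subunit genes tested, 41 were higher and 1 was lower in E.G7, with a median log2 fold change of 0.69. Mrpl20 changed most. Its 4 LN libraries held 32.9, 38.4, 29.1 and 34.3 CPM, the 4 Hepa1-6 libraries 48.4, 44.8, 45.0 and 52.2, and the E.G7 libraries 79.5 and 86.8, so that the 3 groups did not overlap. The log2 fold change of E.G7 over LN was 1.30 ± 0.10 (SE, adjusted p = 1.78e-08). Mrpl11, at the base of the stalk, held 19.2, 24.0, 17.5 and 19.1 CPM in LN, 22.3, 22.6, 20.8 and 25.6 in Hepa1-6 and 44.7 and 50.1 in E.G7. Its LN and Hepa1-6 libraries overlapped, and the E.G7 libraries lay above both groups (log2 fold change 1.25 ± 0.12, adjusted p = 3.30e-07). The stalk protein Mrpl12 went from 48.1 ± 6.26 CPM in LN (SD, n = 4) to 103 ± 8.84 in E.G7 (n = 2), with each E.G7 library above every LN library (log2 fold change 1.10 ± 0.10, adjusted p = 1.76e-07). Mrpl28, a bacterial-type protein of the large subunit, went from 41.4 ± 2.42 to 90.6 ± 4.90 CPM. Mrpl54, specific to mitochondria, and Mrpl55 both changed by 1.10 on the log2 scale (adjusted p = 5.08e-07 and 6.50e-06). Mrpl42 rose by 1.03, Mrpl16 by 1.02, Mrpl34 by 1.00, Mrpl13 by 0.94 and the tunnel protein Mrpl4 by 0.81 on the log2 scale. Increases were also measured for Mrpl3 (0.55), one of the earliest proteins to join the bacterial large subunit, for Mrpl37 (0.43) and Mrps30 (0.88), which have no bacterial counterpart, and for Mrps18a (0.56). Mrpl58, a peptidyl-tRNA hydrolase that became a fixed part of the large subunit, did not pass the test in E.G7 (log2 fold change 0.068 ± 0.13, adjusted p = 0.672).

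Of the 26 small subunit genes, 21 were higher and 1 was lower in E.G7, with a median log2 fold change of 0.52. Mrps12, a protein of the decoding centre, held 27.5, 33.7, 24.9 and 28.1 CPM in the LN libraries and 51.4 and 52.4 in E.G7. The groups did not overlap, and the log2 fold change was 0.86 ± 0.11 (adjusted p = 8.61e-06). Mrps22 rose from 22.2 ± 3.20 to 41.5 ± 0.633 CPM (log2 fold change 0.90 ± 0.13, adjusted p = 1.96e-05). Mrps25 and Mrps11 had the largest changes, 1.10 ± 0.13 and 1.06 ± 0.13, but both share exon bases with a neighbour. For Mrps25 69.8% of exon bases overlap Nr2c2 on the other strand, and Nr2c2 fell in E.G7 by 1.08 on the log2 scale. The start of Mrps11 overlaps that of Mrpl46, a large subunit gene read in the opposite direction, over 7.97% and 12.2% of their exon bases. Mrpl46 rose by 0.90 in E.G7. Of the paralogs of bacterial S18, Mrps18c rose by 0.45 ± 0.16 (adjusted p = 0.0239), whereas Mrps18b did not pass the test at 0.15 ± 0.12 (adjusted p = 0.298). The Mrps18c call was lost in 6 of 19 alternatives. The difference between the paralogs was not tested, and 23.2% and 30.5% of their exon bases overlap predicted genes. Mrps17 was the small subunit gene that fell, from 58.3 ± 5.06 to 49.5 ± 3.50 CPM (log2 fold change -0.23 ± 0.091, adjusted p = 0.0375), and 1 E.G7 library overlapped the LN range. This call was lost in 12 of 19 alternatives. The 2-oxoglutarate dehydrogenase subunit Mrps36 rose by 0.91 ± 0.13 (adjusted p = 1.84e-05).

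**Figure D2:**
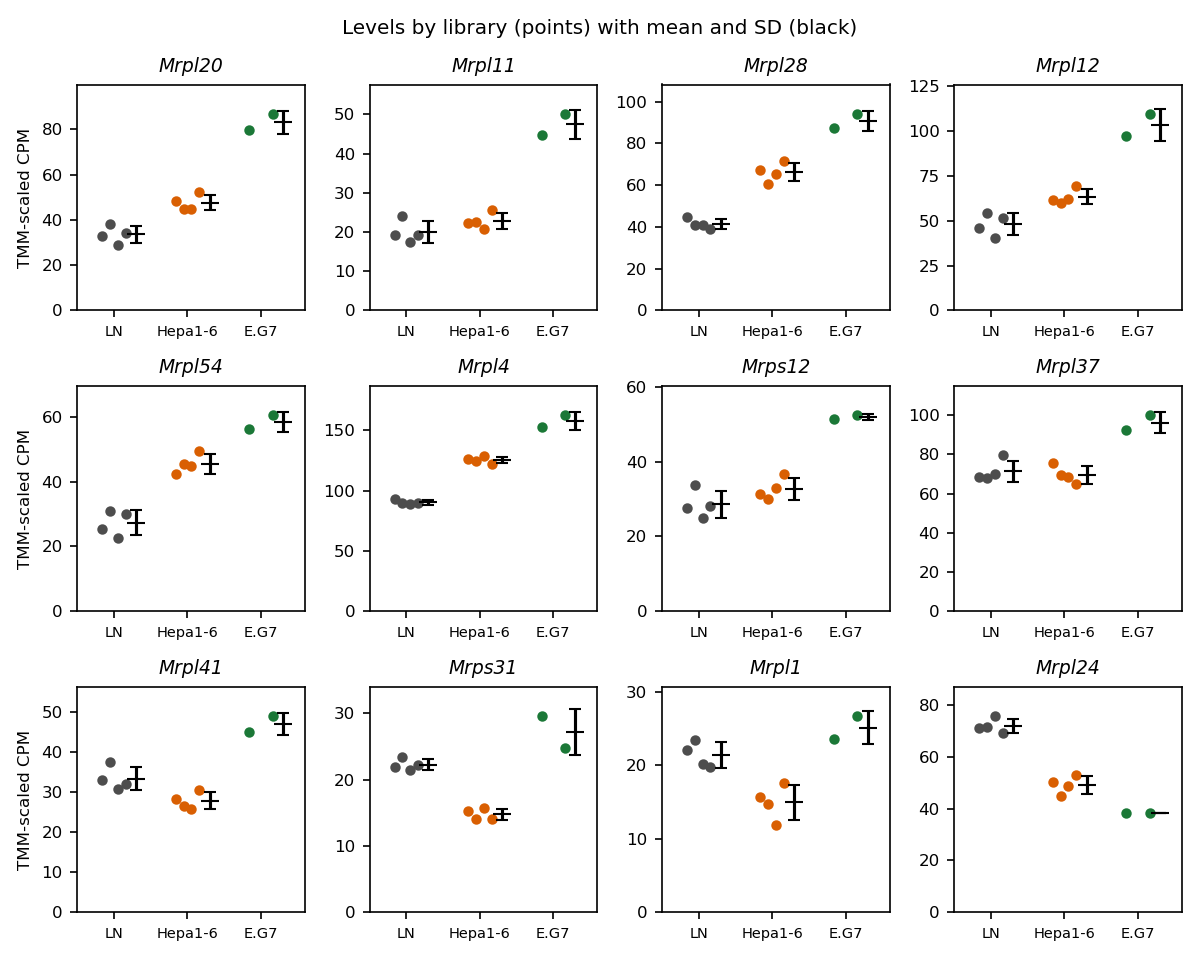
Points are single libraries in TMM-scaled CPM (vertical axis from 0) for 12 members in the LN, Hepa1-6 and E.G7 groups, with the mean and SD of each group in black. Mrpl20 and Mrpl28 step up from LN to Hepa1-6 to E.G7, Mrps31 and Mrpl41 dip in Hepa1-6 and are highest in E.G7, and Mrpl24 steps down to 38.4 and 38.3 CPM in E.G7.

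In Hepa1-6 tumours the same family did not move as a block. Against LN, 21 of 77 members were higher (37% of all genes tested were) and 10 were lower (31.1% of all genes were), with a median log2 fold change of 0.10 beside 0.04 over all genes. Both shares are below those of all genes, and the range, -0.59 to 0.73, was narrow. All 4 Hepa1-6 libraries lay above all LN libraries for 20 members and below them for 7, beside 34.1% and 27.6% of all genes. Only 4 members were higher by at least 1.5-fold, beside 29.2% of all genes, and in edgeR's test against a 1.5-fold change 0 members were higher and 0 lower (3 and 0 at an unadjusted p under 0.05), where 5046 and 3095 of all genes were. The split depended on scaling. With upper-quartile scaling 14 members were higher and 24 lower, and 63 were higher and 2 lower when libraries were scaled to a set of 12 pan T cell genes, so that the higher calls were 67.7%, 36.8% and 96.9% of all member calls under TMM and these alternatives. These scalings moved the median of all genes to -0.13 and 0.38. Relative to the median of all genes, the member median was 0.057, 0.047 and 0.059. The same distance in E.G7 was 0.55, 0.52 and 0.55.

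**Figure D3:**
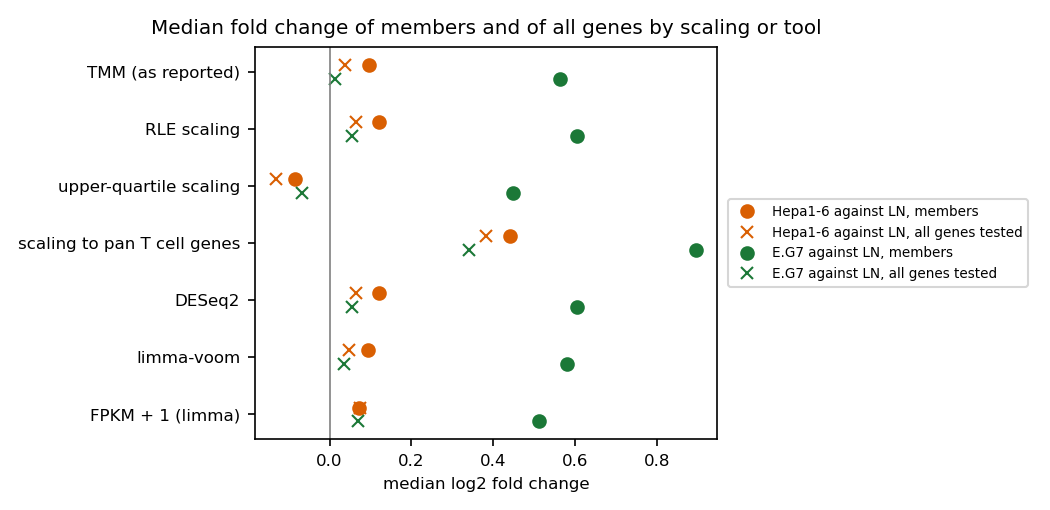
Circles are the median log2 fold change of the members and crosses that of all genes tested, for Hepa1-6 and E.G7 against LN (horizontal axis, log2), with 1 row per scaling or tool. Members and all genes shift together with the scaling, and the distance between circle and cross stays wide in E.G7 and narrow in Hepa1-6.

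The 8 members with the largest increases in Hepa1-6 all belonged to the large subunit. Mrpl54 held 25.5, 31.0, 22.7 and 29.9 CPM in the LN libraries, 42.2, 45.3, 44.6 and 49.3 in Hepa1-6 and 56.1 and 60.5 in E.G7. The groups did not overlap, and the log2 fold change of Hepa1-6 over LN was 0.73 ± 0.096 (adjusted p = 5.35e-06). Mrpl28 held 44.6, 41.1, 41.1 and 38.8 CPM in LN and 67.3, 60.7, 65.5 and 71.4 in Hepa1-6, also without overlap (log2 fold change 0.68 ± 0.070, adjusted p = 3.22e-07). Mrpl17, which sits at the exit of the protein tunnel, held 44.0, 49.9, 41.9 and 40.7 CPM in LN, 71.1, 66.4, 65.3 and 72.1 in Hepa1-6 and 74.0 and 79.2 in E.G7. Both tumour groups lay above LN, at 0.64 and 0.80 on the log2 scale, and the difference between the tumours did not pass the test (Hepa1-6 minus E.G7 -0.16 ± 0.088, adjusted p = 0.163). Mrpl13 (0.67), Mrpl14 (0.51), Mrpl34 (0.51), Mrpl16 (0.51) and Mrpl20 (0.50) completed the 8. Mrpl4 was higher by 0.47 ± 0.050 and Mrpl12 by 0.40 ± 0.088. In the large subunit as a whole 16 of 50 tested genes were higher and 6 lower, with a median of 0.09. In the small subunit 4 of 26 were higher, among them Mrps25 (0.47) and Mrps10 (0.19), and 4 were lower, with a median of 0.06. The shares higher and lower were 32% and 12% in the large and 15.4% and 15.4% in the small subunit. All lie below those of all genes, 37% and 31.1%. The Mrps10 call (adjusted p = 0.0328) was lost in 14 of 21 alternatives, among them 6 of the 8 that left out 1 library. With upper-quartile scaling these medians were -0.09 and -0.12, and the counts 13 higher and 15 lower in the large and 1 higher and 9 lower in the small subunit.

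The members that fell in Hepa1-6 came from both subunits. Mrps31, specific to mitochondria, held 21.9, 23.4, 21.4 and 22.1 CPM in the LN libraries and 15.2, 14.0, 15.8 and 14.1 in Hepa1-6. The groups did not overlap, and the log2 fold change was -0.59 ± 0.095 (adjusted p = 4.88e-05). Mrpl1, of the movable stalk beside the exit site for tRNA, held 22.1, 23.4, 20.2 and 19.7 CPM in LN, 15.7, 14.8, 11.9 and 17.5 in Hepa1-6 and 23.5 and 26.7 in E.G7. Every Hepa1-6 library was below every LN library (log2 fold change -0.51 ± 0.12, adjusted p = 0.00129), and the change in E.G7 did not pass the test (0.23 ± 0.14, adjusted p = 0.173). Mrpl47 fell by 0.48 and Mrpl58 by 0.32 on the log2 scale, as did Mrps35, by 0.27. Mrpl58 and Mrps35 stood at 0.022 and 0.077 with pan T cell scaling. Of Mrpl47's exon bases 24.2% overlap Actl6a or Ndufb5. Every Mrpl47 library of both tumours lay below every LN library, but its change in E.G7 did not pass the test (-0.24 ± 0.14, adjusted p = 0.139). Mrpl37, Mrps22 and Mrpl48 had log2 fold changes of -0.041, -0.041 and -0.0085 and did not pass the test in Hepa1-6 (adjusted p = 0.616, 0.763 and 0.957). Mrps12 and Mrpl33, bacterial-type proteins, were at 0.20 and 0.22 without passing it.

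Compared with each other, the 2 tumours differed for most members. Hepa1-6 was lower than E.G7 for 62 of 77 (19.6% of all genes were lower) and higher for 1 (26.1% were higher), with a median log2 difference of -0.47 beside 0.06 over all genes. In 67 members every Hepa1-6 library was below both E.G7 libraries, beside 26.2% of all genes. The large subunit had 42 lower and 1 higher, the small subunit 19 lower and 0 higher (edgeR; also 0 at an unadjusted p under 0.05, by DESeq2 and by limma-voom), and both had a median of -0.47. The widest gaps were those of Mrpl11 (-1.05 ± 0.12, adjusted p = 3.52e-06), Mrps22 (-0.94 ± 0.13), Mrpl55 (-0.92 ± 0.14), Mrpl42 (-0.91 ± 0.086) and Mrpl46 (-0.89 ± 0.10). The fitted change from LN was larger in E.G7 than in Hepa1-6 for 75 of the 77 members. Since both changes are taken from the same 4 LN libraries, their likeness across members was not used as a result. Of the 77, 21 were higher in both tumours, 37 were higher in E.G7 without passing the test in Hepa1-6, and 8 passed in neither. Among all genes, 37% were higher in Hepa1-6 and 32.7% in E.G7. Joint outcomes were not counted over all genes, so these counts describe the members only.

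5 members were called in opposite directions, lower than LN in Hepa1-6 and higher than LN in E.G7. The share of all genes with such opposite calls was not counted. Mrps26 held 61.6, 65.2, 55.4 and 59.8 CPM in LN, 46.2, 45.9, 45.2 and 48.6 in Hepa1-6 and 80.0 and 81.9 in E.G7. The 3 groups did not overlap, with log2 fold changes of -0.38 ± 0.065 (adjusted p = 8.22e-05) and 0.42 ± 0.077 (adjusted p = 2.13e-04). Mrpl41 held 33.2, 37.7, 30.9 and 32.05 CPM in LN, 28.3, 26.7, 25.9 and 30.7 in Hepa1-6 and 45.1 and 49.1 in E.G7. Its changes were -0.26 ± 0.087 (adjusted p = 0.0144) and 0.49 ± 0.10 (adjusted p = 6.70e-04). Mrpl44, whose fold is that of an RNase III enzyme, changed by -0.28 and 0.33, Mrps15 by -0.17 and 0.43, and Mrps31 by -0.59 and 0.29. All 5 were lower in Hepa1-6 than in E.G7, by 0.60 to 0.88 on the log2 scale, a direction that follows from how they were chosen. Several of these calls were lost under other settings. The Mrps15 call in Hepa1-6 was lost in 10 of 21 alternatives, the Mrps31 call in E.G7 in 8 of 19 and the Mrpl44 call in E.G7 in 5 of 19, each of them including the fit with the replicate number as a block. The falls of Mrpl44, Mrpl41 and Mrps15 in Hepa1-6 turned to values above LN with pan T cell scaling (0.069, 0.082 and 0.17). Their difference between the tumours is not measured against LN, but the genes were chosen by calls against LN, so it is no separate support.

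Mrpl24, a large subunit protein that starts assembly in bacteria, was the only member called lower than LN in both tumours. It held 71.1, 71.6, 75.7 and 69.3 CPM in the LN libraries, 50.1, 44.8, 48.6 and 53.1 in Hepa1-6 and 38.4 and 38.3 in E.G7. The 3 groups did not overlap. The log2 fold change was -0.55 ± 0.066 in Hepa1-6 (adjusted p = 2.09e-06) and -0.91 ± 0.084 in E.G7 (adjusted p = 1.55e-07), and Mrpl24 was the only member higher in Hepa1-6 than in E.G7 (0.36 ± 0.083, adjusted p = 0.00215). It lies at chr3:87919506-87923672 on build mm10, and 26.3% of its exon bases overlap Rrnad1 on the other strand. Rrnad1 fell too, from 45.3 CPM in LN to 23.2 in Hepa1-6 and 23.0 in E.G7 (log2 fold changes -0.96 and -0.98). Whether reads were counted by strand was not given in the sources used here, so reads of the shared bases may belong to either gene. Exons of 32 members overlap another listed gene. Among the 46 without overlap, 37 were higher and 1 lower in E.G7, 11 higher and 5 lower in Hepa1-6, and 40 lower and 0 higher in Hepa1-6 than in E.G7.

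Bacterial-type and mitochondria-specific members both rose in E.G7. Of them, 37 of 45 bacterial-type genes were higher and 2 lower (median 0.67), against 22 of 27 tested mitochondria-specific genes higher and 0 lower (edgeR, median 0.48; also 0 at an unadjusted p under 0.05, by DESeq2 and by limma-voom). Among all genes, 32.7% were higher and 27.2% lower in E.G7. In Hepa1-6, 14 of 45 bacterial-type genes were higher (31.1%) and 4 lower (8.89%), with a median of 0.19. Among mitochondria-specific genes 6 were higher (22.2%) and 6 lower (22.2%), with a median of 0.0040. In both classes the Hepa1-6 shares lie below those of all genes, 37% higher and 31.1% lower. Differences between these classes were not tested.

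The summed level of all members was 2728, 2948, 2535 and 2815 CPM in the LN libraries, 2903, 2832, 2944 and 3181 in Hepa1-6, and 4086 and 4245 in E.G7. The LN and Hepa1-6 sums overlapped, and the E.G7 sums lay above both. The ratio of group means to LN was 1.08 for Hepa1-6 and 1.51 for E.G7. As a share of all counts, without TMM scaling, the members made up 0.278% to 0.312% in LN, 0.261% to 0.290% in Hepa1-6 and 0.412% to 0.434% in E.G7. On the TPM scale the ratios were 0.905 and 1.40, so the side of LN on which the Hepa1-6 sum falls depends on the scale, and that of E.G7 does not. Against the summed level of 12 pan T cell genes, member RNA stood at a ratio of 0.349 ± 0.012 in LN (SD, n = 4), 0.477 ± 0.024 in Hepa1-6 (n = 4) and 0.663 ± 0.016 in E.G7 (n = 2), without overlap between groups. The pan T cell sum itself was 7896 ± 273 CPM in LN, 6222 ± 52.1 in Hepa1-6 and 6282 ± 17.6 in E.G7. The ratio of summed large to summed small subunit TPM was 2.32 ± 0.048 in LN, 2.50 ± 0.074 in Hepa1-6 and 2.50 ± 0.056 in E.G7. Every tumour library lay above every LN library in this ratio, although the shift was small (1.07-fold and 1.08-fold). The 16 cell cycle genes, which moved in the same order, summed to 825 ± 37.2, 1864 ± 33.8 and 3811 ± 179 CPM, and their part in the member sums was not tested.

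**Figure D4:**
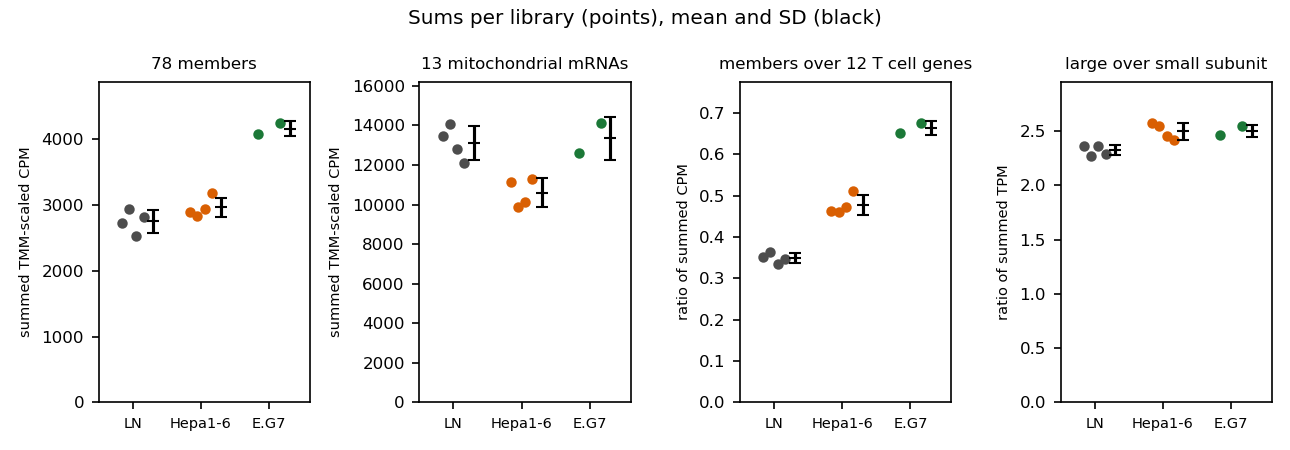
Points are libraries with group mean and SD in black, for the summed TMM-scaled CPM of the 78 members, that of the 13 mRNAs of the mitochondrial genome, the ratio of the member sum to the sum of 12 pan T cell genes, and the ratio of summed large to summed small subunit TPM. Member sums are highest in E.G7 at 4086 and 4245 CPM, while the mitochondrial mRNAs are lowest in Hepa1-6.

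The other genes of mitochondrial gene expression were counted in the same way, beside the 37% of all genes that were higher and the 31.1% that were lower in Hepa1-6, and the 32.7% and 27.2% in E.G7. Differences between these lists and the members were not tested. 5 mitochondrial ribosome proteins have names outside the Mrp series, and in E.G7 4 of them rose and 0 fell (edgeR; also 0 at an unadjusted p under 0.05, by DESeq2 and by limma-voom), with a median of 0.55. These were Aurkaip1 (0.72), Chchd1 (0.80), Ptcd3 (0.38) and Gadd45gip1 (0.55). In Hepa1-6 Aurkaip1 rose (0.20) and Ptcd3 (-0.51) and Dap3 (-0.27) fell, and all 5 were lower in Hepa1-6 than in E.G7. In Hepa1-6 3 were higher and 1 lower with pan T cell scaling.

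The substrates of the ribosome, the 13 mRNAs of the mitochondrial genome, showed 0 higher and 0 lower in E.G7 (edgeR), with log2 fold changes of -0.21 to 0.38. At an unadjusted p under 0.05, 1 was higher and 0 lower, DESeq2 called 3 higher and 0 lower, and limma-voom 1 and 0. With pan T cell scaling 7 were higher. Their sum was 13120 ± 862 CPM in LN, 13346 ± 1075 in E.G7 and 10608 ± 714 in Hepa1-6. In Hepa1-6, 8 fell and 2 rose, and with pan T cell scaling 4 were lower and 3 higher. Among those that fell were mt-Cytb (-0.72 ± 0.048), of respiratory complex III, and mt-Nd5 (-0.65 ± 0.063), mt-Nd4 (-0.54 ± 0.056) and mt-Nd6 (-0.53 ± 0.078), of complex I. The ratio of summed mitochondrial mRNA to summed members was 4.77 ± 0.34 in LN, 3.58 ± 0.18 in Hepa1-6 and 3.20 ± 0.17 in E.G7, and no tumour library reached the lowest LN ratio. The mitochondrial ribosomal RNAs mt-Rnr1 and mt-Rnr2 passed the test in neither tumour, at an adjusted or an unadjusted p, nor by DESeq2 or limma-voom (log2 fold changes of -0.39 and -0.10 in Hepa1-6, -0.18 and 0.071 in E.G7). How ribosomal RNA was removed from the libraries was not given in the sources used here.

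Of 16 genes that act with the ribosome in translation, 8 rose (50%) and 4 fell (25%) in E.G7, with a median of 0.21. The elongation factors Tufm (0.59 ± 0.069), Tsfm (0.72 ± 0.098) and Gfm1 (0.54 ± 0.099) and the RNA-degrading Pnpt1 (0.56 ± 0.091) were among those that rose. In Hepa1-6, 2 rose and 7 fell, among them the initiation factors Mtif2 (-0.57) and Mtif3 (-0.67), Gfm2 (-0.50), a factor of ribosome recycling, and Taco1 (-0.88), an activator of translation of a cytochrome oxidase mRNA. With pan T cell scaling the Hepa1-6 counts became 8 higher and 3 lower, and the median went from -0.011 to 0.33. Of 26 assembly factors, 17 fell (65.4%) and 6 rose (23.1%) in Hepa1-6, with a median of -0.50. In E.G7 12 fell (46.2%) and 8 rose (30.8%), the latter close to the share over all genes, with a median of -0.15. Mettl17 held 79.0 ± 6.28 CPM in LN, 34.4 ± 2.21 in Hepa1-6 and 40.1 ± 0.508 in E.G7. It fell by 1.20 and 0.98 on the log2 scale, and the GTPase Mtg2 fell by 0.85 and 0.75. The pseudouridine synthase Rpusd4 fell in E.G7 (-0.72), and Mterf3 (-0.63) and Ngrn (-0.88) fell in Hepa1-6. The helicase Ddx28 rose in E.G7 (0.94). With pan T cell scaling the assembly factor counts became 10 lower and 8 higher in Hepa1-6 and 3 lower and 10 higher in E.G7, with medians of -0.16 and 0.18.

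Of 20 genes that charge mitochondrial tRNAs, 12 fell (60%) and 2 rose (10%) in Hepa1-6 (median -0.45), and 7 fell (35%) and 4 rose (20%) in E.G7 (median 0.065). Ears2 fell in both (-1.17 and -1.09), as did Nars2 (-0.95 and -0.74). Of 14 genes for copying and transcribing mitochondrial DNA, 10 fell and 0 rose in Hepa1-6 (edgeR, median -0.34; 1 rose at an unadjusted p under 0.05 and by DESeq2, 0 by limma-voom), and 4 fell and 5 rose in E.G7 (median 0.13). The E.G7 shares, 28.6% and 35.7%, lie near those of all genes. Tfam, which packages mitochondrial DNA and starts its transcription, held 56.1 ± 4.04 CPM in LN, 33.3 ± 2.50 in Hepa1-6 and 69.8 ± 0.526 in E.G7. It thus fell in Hepa1-6 (-0.75 ± 0.075) and rose in E.G7 (0.32 ± 0.089). The RNA polymerase Polrmt fell in Hepa1-6 by 0.60, and the RNA-processing enzymes Prorp (1.53) and Elac2 (0.73) rose in E.G7. Twnk fell in both tumours (-0.36 in Hepa1-6 and -0.80 in E.G7). It shares exon bases with the member Mrpl43, which was higher in both. Of Mrpl43's exon bases 33.4% overlap another listed gene, so reads of shared bases may belong to either gene. Mterf1a, with the smallest adjusted p of the list (edgeR), fell in Hepa1-6, and it was among the 4 smallest in E.G7. The lowest log2 fold changes in the list were -1.71 in Hepa1-6 and -1.29 in E.G7. With pan T cell scaling tRNA charging had 8 lower and 7 higher in Hepa1-6 and 5 lower and 12 higher in E.G7, where the median became 0.40, and mitochondrial DNA had 3 lower and 4 higher in Hepa1-6 and 2 lower and 8 higher in E.G7. With upper-quartile scaling the E.G7 counts for mitochondrial DNA were 5 lower and 2 higher.

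Of 18 genes for protein import, chaperones and other mitochondrial housekeeping, 13 rose in Hepa1-6 and 15 in E.G7, and 0 fell in either (edgeR; also 0 at an unadjusted p under 0.05, by DESeq2 and by limma-voom), with medians of 0.40 and 0.96. The chaperone Hspd1 held 189.7 ± 4.23 CPM in LN, 333 ± 18.4 in Hepa1-6 and 671 ± 3.11 in E.G7. Its increases were 0.81 ± 0.048 and 1.82 ± 0.056 on the log2 scale. The outer membrane channel Vdac1 (1.26 and 1.55) and the prohibitin Phb2 (0.68 and 1.34) rose in both, and so did Hspa9 in E.G7 (1.22). Among 11 regulators of mitochondrial biogenesis, 3 rose and 7 fell in Hepa1-6 and 4 rose and 4 fell in E.G7, where each count is 36.4% of the list. Scaled to pan T cell genes, 5 were higher and 1 lower in Hepa1-6, and 6 and 1 in E.G7. Myc fell in Hepa1-6 (-0.50 ± 0.052), and Gabpb1, a partner subunit of the ETS factor GABP, rose in E.G7 (0.39 ± 0.072). The coactivator genes Ppargc1b (-0.61 and -0.71) and Pprc1 (-0.43 and -0.50) fell in both. Mycn was also among the 4 smallest adjusted p of this list in Hepa1-6, and Ppargc1a in E.G7 (edgeR). Mycn had no count in LN and was detected in both tumours. The largest log2 fold changes in the list were 6.85 in Hepa1-6 and 5.64 in E.G7.

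**Figure D5:**
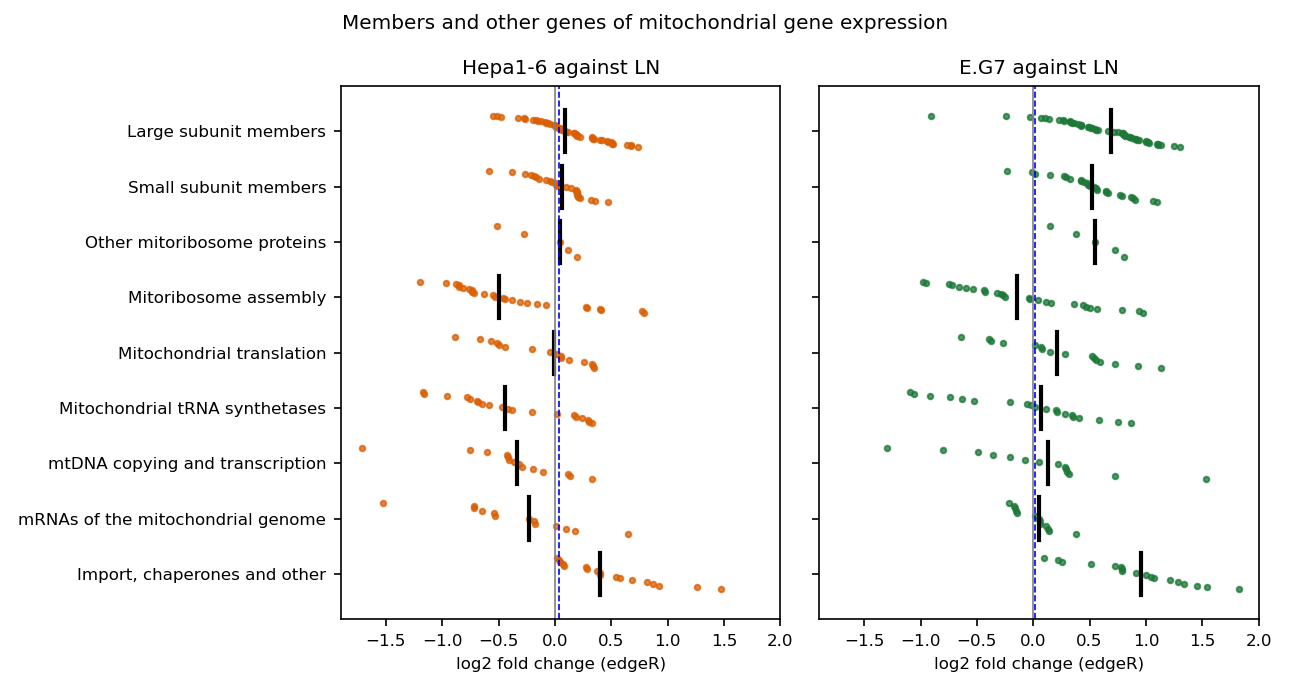
Each point is a gene, placed by its log2 fold change against LN (horizontal axis) in Hepa1-6 (left) and E.G7 (right), with black bars at list medians, a solid line at 0 and a dashed line at the median of all genes tested. The 2 subunit rows shift to the right in E.G7 (medians 0.69 and 0.52), whereas assembly factors lie to the left in Hepa1-6 (median -0.50).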

How the data were processed

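RNA was sequenced from 10 libraries of sorted mouse Treg cells on a BGISEQ-500, per the labels' protocols. The authors deposited 1 table of gene counts, without normalization, and FPKM tables per library. The submitters' processing notes name HISAT2, featureCounts, Subread, RSEM, DESeq2 and build mm10, without versions or order. Checked on the files, the deposited FPKM values equal counts over length times 1 constant per library. Counting by strand was not given in the sources used here, so reads of overlapping genes may be misassigned.

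Counts were fitted with edgeR 4.0.16 (R 4.3.3; quasi-likelihood, filterByExpr, TMM, all 10 libraries in 1 fit), with Benjamini-Hochberg adjustment over 20068 genes and a threshold of 0.05. The totals of 22665563 to 26665325 counts gave each detected member 186 counts or more per library. CPM are TMM-scaled, and TPM are counts per listed exon length scaled to a fixed total. Alternatives used limma 3.58.1, DESeq2 1.42.0, other scalings and filters, log2(FPKM + 1) and log2(FPKM + 0.1), a replicate block, and left-out libraries. Scripts were tested on simulated counts.

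Members and lists were chosen with earlier results of these data known. Named members were a fixed group of 14, the largest changes among called members whose libraries do not overlap (8 up and 5 down), the 4 highest and 4 lowest levels, members with opposite calls, the undetected member and, per other list, the 4 smallest adjusted p. Genes sharing exons with members, the markers that make up most of a sum and the genes naming a list were named after their values were seen. Alternatives for the other lists were added after seeing the data.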

Additional observations from a re-analysis of the deposited data

Results flagged for a closer look

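5 genes of the mitochondrial ribosome were marked because they were called in opposite directions against LN in the 2 tumours. Genes chosen by this rule are lower in Hepa1-6 than in E.G7 by construction, so their difference between the tumours is no separate support. This difference passed the test for all 5 (edgeR, Hepa1-6 minus E.G7, 4 against 2 libraries), and Hepa1-6 was lower for 62 of 77 members. The log2 differences were -0.88 for Mrps31, -0.80 for Mrps26, -0.76 for Mrpl41, -0.60 for Mrpl44 and -0.60 for Mrps15, and in each gene all 4 Hepa1-6 libraries lay below both E.G7 libraries. In 86 groups of 4 libraries, covering the named members and the sums, 0 had a library set apart from the others, where chance would mark about 1 in 20.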

How the results depend on the processing

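Over all alternatives, the 63 higher members in E.G7 stayed within 1.5 times of that count except where noted, and the E.G7 median stayed above 0. Upper-quartile scaling gave 24 lower members and a median of -0.084 in Hepa1-6 against LN, and a median of 0.45 in E.G7. Pan T cell scaling gave 63 higher, 2 lower and a median of 0.44 in Hepa1-6, and a median of 0.89 in E.G7. A test against a 1.5-fold change left 0 higher and 0 lower in Hepa1-6, 31 higher and 1 lower in E.G7, and 0 higher and 11 lower between the tumours, since it asks for more. Leaving out members with exon overlap, and so testing 46, gave 11 higher and 5 lower, 37 and 1, and 0 and 40. The count of lower members in E.G7 went from 2 to 1, through loss of Mrps17, with RLE or pan T cell scaling, no filter, DESeq2, the fit of only the groups compared and the replicate block, and the cause was not tested. Leaving out 1 library at a time gave 19 to 24 higher and 9 to 14 lower in Hepa1-6, 55 to 63 higher and 1 to 2 lower in E.G7, and 47 to 64 lower in Hepa1-6 than in E.G7. The E.G7 median ranged from 0.54 to 0.64.

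With pan T cell scaling 9 named members changed sign in Hepa1-6 against LN, to log2 fold changes of 0.27 for Mrpl3, 0.30 for Mrpl37, 0.022 for Mrpl58, 0.069 for Mrpl44, 0.082 for Mrpl41, 0.077 for Mrps35, 0.30 for Mrps22, 0.34 for Mrpl48 and 0.17 for Mrps15, and the cause was not tested. Of the other results for named members, 2040 kept direction and call, 130 lost the call, 27 gained it, and 36 changed sign without being called under either setting, among them Mrps18b and Mrpl46 in Hepa1-6 and Mrpl58 and Mrps35 in E.G7.

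No pairing by library number was seen (correlations of -0.099 to 0.074 over 8 pairs of the same number, and -0.087 to 0.099 between different numbers). The correlated values were deviations from group means, which mirror each other in the 2 E.G7 libraries. Correlations with E.G7 therefore come in equal and opposite pairs, and the 2 ranges are not independent. With the replicate block 21 members were higher and 9 lower in Hepa1-6, 62 and 1 in E.G7, and 1 and 60 between the tumours. With 2 libraries, the spread within E.G7 rests on few values, and when 1 is left out the other is assumed to vary like the other groups.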

Other observations

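8 members passed the test in neither tumour and were picked out after their values were seen: Mrps5, Mrpl9, Mrpl23, Mrpl22, Mrps23, Mrpl38, Mrpl52 and Mrps18b. The share of all genes that passed in neither was not counted. Whether they passed depended on the setting for some: Mrps23 was called in 7 of 19 alternatives in E.G7 and in 7 of 21 in Hepa1-6, and Mrps5 in 8 of 21 in Hepa1-6. Their mean level in LN ran from 16.5 CPM for Mrps18b to that of Mrpl9. Mrpl9 stood at 67.7 ± 3.28 CPM in LN (SD, n = 4), 63.7 ± 6.64 in Hepa1-6 (n = 4) and 74.8 ± 7.23 in E.G7 (n = 2), and Mrps5, a protein at the mRNA entry of the small subunit, at 52.4 ± 5.26, 46.1 ± 3.58 and 51.9 ± 1.40. Mrpl38 stood at 44.8 ± 2.08, 42.8 ± 3.36 and 48.0 ± 1.09. Their log2 fold changes in E.G7 ran from -0.028 ± 0.15 for Mrpl52 to 0.27 ± 0.15 for Mrpl22, so that for Mrpl22 a change near the family median of 0.56 lies less than 2 standard errors away. Against Hepa1-6, E.G7 was higher for Mrps23 (Hepa1-6 minus E.G7 -0.48 ± 0.12, adjusted p = 0.00355), Mrpl23 (-0.43 ± 0.13, adjusted p = 0.0124) and Mrpl22 (-0.40 ± 0.15, adjusted p = 0.0425), the last of which was lost in 6 of 19 alternatives.

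6 pseudogene symbols of the family were left out of the members. Mrpl23-ps1 had the most counts, at most 59 in a library, and Mrps36-ps3 had 0, so reads placed on these copies were few beside the 186 counts or more of each detected member.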
